A study of Homo sapiens with 29 samples.

Results

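ZNF148 knockdown was examined here at 96 h in growth media, by the 3 arrays labelled siZNF148 and the 2 arrays labelled siControl at that time in that medium, 5 of the 29 arrays of the study, across all genes with a tested probe. Only 2 control arrays carry these labels. The cells were LHCN-M2, a line of human myoblasts that grew from a selected clone and was immortalized with telomerase and CDK4, so added CDK4 is shared by all groups. Cells received siRNA at a final concentration of 20 nM, either a pool against ZNF148 (siZNF148) or nontargeting siRNA (siControl), and both groups were confluent and in growth media, which holds fetal bovine serum, dexamethasone, hepatocyte growth factor and basic fibroblast growth factor. Arrays of both siRNAs at 24 and 48 h, and those from differentiation media at 96 h, served to show where the 96 h values differ. All 29 arrays also shared the normalization and the fit, so the other arrays enter the standard errors and p-values. The labels call the arrays biological replicates. The p-values rest on the spread between replicates pooled over all 10 groups of the study, not on that of these 5 arrays alone.

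ZNF148 is a zinc finger transcription factor that binds GC-rich DNA. Skeletal muscle arises when cycling myoblasts leave the cell cycle, turn on MYOG and MEF2 factors, fuse into myotubes and build sarcomeres, the contractile units in which thick myosin filaments slide along thin actin filaments anchored in Z-discs. Serum and growth factors, as in growth media, normally keep myoblasts dividing.

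Values are log2 signals after quantile normalization over all arrays, and a difference is siZNF148 minus siControl on the log2 scale. A gene was called when the adjusted p of limma (Benjamini-Hochberg over all tested probes) was under 0.05 and the change exceeded 2-fold. A probe's signal depends on the probe, so levels are compared between groups and not between genes. In these cultures fewer cells of a type and less RNA per cell cannot be told apart. Between 46.12% and 55.45% of the probes of the 5 arrays were well above background, against 41.53% to 56.52% over all arrays. Both siControl arrays and siZNF148 replicate 2 shared a slide, and siZNF148 replicates 1 and 3 were on another. Markers of the myoblast lineage were well above background on all 5 arrays, with MYOD1 at 16.49 and 16.44 in siControl and 17.00, 17.01 and 16.99 in siZNF148.

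The targeted gene was lower in every knockdown array. ZNF148 measured 8.98 and 9.18 in siControl and 6.76, 6.93 and 6.64 in siZNF148, a fall to a 4.94-fold lower signal (log2 difference -2.31, SE 0.15, limma adjusted p = 9.09e-11). The groups did not overlap, and the difference was -2.15 within the shared slide, with siZNF148 replicate 2 alone. ZNF281, its closest paralog, measured 10.39 and 10.19 against 10.39, 10.53 and 10.45 (adjusted p = 0.183). Of 11 genes that the study background ties to ZNF148 or to GC-box factors, ENO3 and the filament gene DES rose by 5.28 and 1.99, and the filament gene VIM and the factor SP3 fell by 1.04 and 1.25. VIM lost the call under 3 alternatives, among them without siControl replicate 1.

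The response covered a large share of the genes. Of 18398 genes tested, 2264 (12.3%) were higher and 2286 (12.4%) were lower after ZNF148 knockdown. Among the 14171 genes well above background on all 5 arrays, 315 were higher and 179 lower by over 8-fold, and 37 were higher and 2 lower by over 64-fold. A further measure of scale is that 370 of the genes called higher were well above background on all siZNF148 arrays and on no siControl array, while 102 of those called lower showed the reverse. With groups this tight, 13802 genes (75%) had arrays that did not overlap, so lack of overlap alone marks little. At 48 h in growth media 2153 genes (11.7%) were higher and 2247 (12.2%) were lower. Of the genes higher at 96 h, 1645 were also higher at 48 h, 604 were not called there and 15 were lower. By the test of the difference between times, the effect was higher at 96 h than at 48 h for 573 genes (3.11%) and lower for 349 (1.9%).

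**Figure D1:**
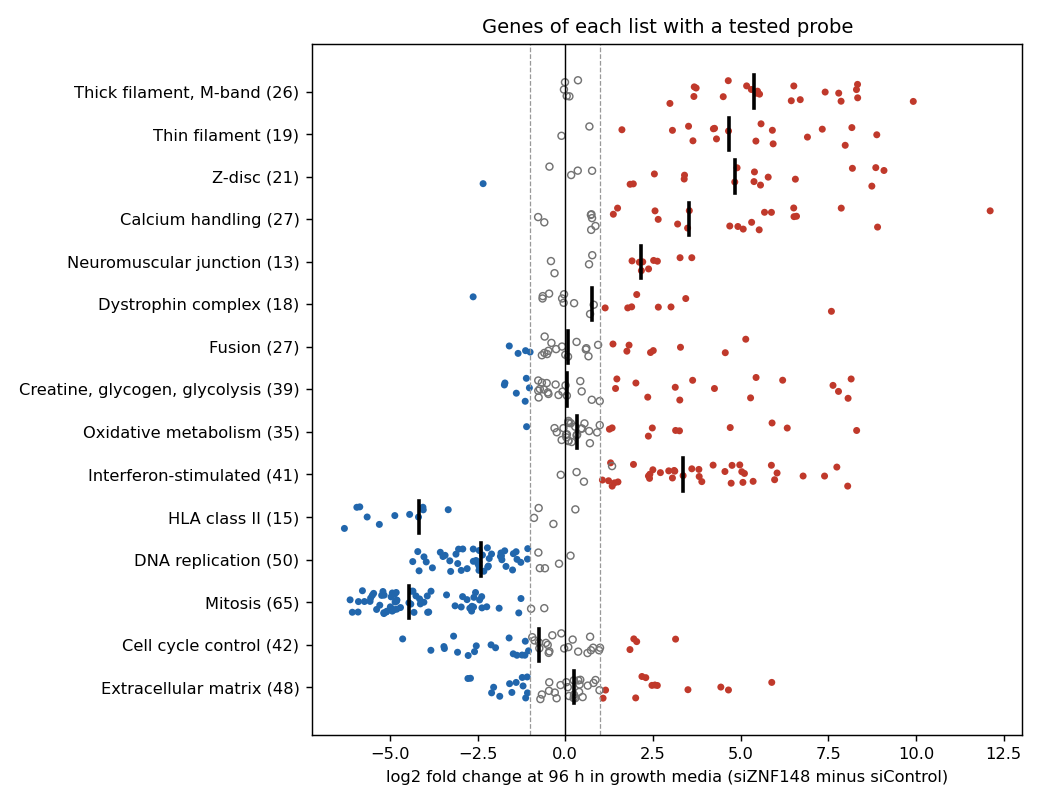
Each point is a gene of the named list, placed by its log2 fold change at 96 h in growth media (siZNF148 minus siControl), with the number of genes tested in parentheses. Red and blue points were called higher and lower, open points were not called, black bars are list medians and dashed lines mark 2-fold. Sarcomere and interferon lists lie to the right, with medians of 5.37 for the thick filament and 3.36 for interferon-stimulated genes, and HLA class II, DNA replication and mitosis lists lie to the left.

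Muscle regulators changed unevenly. Of 8 myogenic and MEF2 factors, 3 rose and 1 fell. MYOG, the factor that starts terminal differentiation, rose from 6.81 and 7.07 to 11.44, 11.07 and 11.45 (difference 4.38, adjusted p = 1.50e-05). MEF2A, a partner of the myogenic factors, rose from 11.87 and 11.73 to 13.17, 13.34 and 13.11. MYF5, which marks committed but undifferentiated myoblasts, fell from 13.02 and 12.91 to 11.09, 11.25 and 11.16 (difference -1.80, adjusted p = 4.72e-06). No siZNF148 array reached a siControl array for these 3 genes. MYF6 had a difference of 0.98 and MEF2B of -0.77, both short of 2-fold. Among 29 progenitor factors and inhibitors of myogenic factors, 8 rose and 7 fell. TWIST1 and SNAI2, repressors that hold cells in an undifferentiated state, fell by 2.30 and 2.21, and PAX3, a factor of muscle progenitors, fell by 1.28. The inhibitor MSC rose by 2.51, and HES6, which favours differentiation, rose by 4.14.

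Sarcomere genes rose as a group. Of 26 thick filament and M-band genes 21 rose and none fell, with a median difference of 5.37, against a median of -0.03 over all genes tested. Thin filament genes rose in 17 of 19 cases (median 4.65), and Z-disc genes in 16 of 21 (median 4.83), where 1 fell. MYBPC1, the slow isoform of a myosin-binding protein, was not well above background in siControl and measured 12.46, 12.44 and 12.68 in siZNF148, at least 340-fold higher. CSRP3, a Z-disc protein that senses stretch, rose from 6.18 and 6.07 to 15.10, 15.25 and 15.28 (difference 9.08, adjusted p = 1.32e-05). KLHL40, which stabilizes thin filament proteins, rose from 5.78 and 5.74 to 13.79, 13.79 and 13.64. LMOD2, which lengthens thin filaments, rose from 4.02 and 4.56 to 13.22, 13.16 and 13.14, and was well above background on 1 of 2 siControl arrays. TNNC2, the calcium sensor of fast fibres, reached 18.49 on all 3 siZNF148 arrays from 10.36 and 10.29, which is the top of the normalized scale, so no exact size is given. SYNPO2, an actin-bundling protein of the Z-disc, fell from 8.54 and 8.52 to 6.27, 6.23 and 6.06, although the call was lost when all its probes were averaged.

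Myosin heavy chains, the motors of the thick filament, rose across developmental, slow and fast forms. MYH3, the embryonic form, rose from 11.52 and 11.41 to 18.14, 18.23 and 18.10, and MYH8, the perinatal form, rose from 10.36 and 10.17 to 15.71, 15.70 and 15.70. MYH7, of slow fibres and heart, rose from 9.17 and 9.28 to 17.66, 17.49 and 17.53. Among fast forms MYH2 rose by 4.65, MYH1 was well above background only in siZNF148, at 5.35, 5.06 and 5.06 (at least 2.06-fold higher), and MYH4 was below background in both groups. In counts, 12 of 13 slow fibre genes and 12 of 13 fast fibre genes rose, with medians of 5.93 and 4.92. The difference between the fibre type lists was not tested. Standard errors of these genes are wide, 1.48 for MYH7, because the fit shares its spread with all groups and siControl replicate 1 at 48 h in growth media had high muscle genes. Without that array 21 thick filament genes were still called higher.

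The promoters of KLHL40 and of CKM, the cytosolic creatine kinase of muscle, are shown as 2 examples from muscle genes with large rises. They are 300 bases from RefSeq (GRCh38.p14), from 250 before to 50 after the start, 5′ to 3′. Capitals mark an E-box (CAGCTG, bound by myogenic factors), a MEF2-type motif (CTANNNNTAG, searched on both strands) and a C-rich motif (CCCTCCCC). The pair was chosen after values were seen. Of genes well above background in both groups and outside the interferon list, it had the largest rises with an E-box in the promoter. CSRP3, MYH7 and TNNC2 had no entry, and IL17B, AQP1 and CASQ2 had entries without an E-box.
KLHL40 (chr3:42685287-42685586, strand +): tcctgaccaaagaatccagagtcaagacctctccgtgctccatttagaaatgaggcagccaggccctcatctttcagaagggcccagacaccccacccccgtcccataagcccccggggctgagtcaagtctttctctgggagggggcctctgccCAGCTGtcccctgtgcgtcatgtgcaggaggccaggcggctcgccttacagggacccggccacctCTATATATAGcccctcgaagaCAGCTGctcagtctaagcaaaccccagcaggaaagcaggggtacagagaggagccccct
CKM (chr19:45322826-45323125, strand -): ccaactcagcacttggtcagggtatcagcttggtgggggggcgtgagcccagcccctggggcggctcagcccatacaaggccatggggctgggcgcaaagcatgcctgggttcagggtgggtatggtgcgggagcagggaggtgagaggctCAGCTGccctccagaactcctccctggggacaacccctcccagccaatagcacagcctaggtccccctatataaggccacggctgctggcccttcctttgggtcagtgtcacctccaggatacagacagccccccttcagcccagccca
KLHL40 held 2 E-boxes and 1 MEF2-type motif, and CKM held 1 E-box. An E-box in each was a condition of the choice and so is not a finding. Over all 27305 promoters, 17.7% held the E-box and 2.83% the MEF2-type motif. The E-box was present in 22.5% of 1659 promoters of genes called higher and 16.8% of 1795 of genes called lower. It was present in 37.5% of 16 thick filament, 35.7% of 14 thin filament and 27.8% of 18 Z-disc promoters. In the same order of lists the MEF2-type motif was present in 12.5%, 21.4% and 27.8%, and the C-rich motif in 37.5%, 21.4% and 38.9%. The C-rich motif was present in 12.8% of all promoters, 16% of those of all genes tested, 20% of those of genes called higher and 17.2% of those of genes called lower. A match is a description of letters and not a bound site.

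Genes that couple the nerve signal to calcium release rose too. Of 27 genes of excitation-contraction coupling 20 rose and none fell (median 3.54). SRL, a calcium-binding protein of the sarcoplasmic reticulum, measured 14.52, 14.38 and 14.40 in siZNF148 and was not well above background in siControl, at least 1281-fold higher. TRDN, which links the release channel to its calcium store, measured 10.89, 10.99 and 11 and was likewise below background in siControl, at least 115-fold higher. CASQ2, which stores calcium, rose from 6.13 and 6.19 to 14.07, 13.96 and 14.06. RYR1, the release channel, rose by 4.69 and CACNA1S, the voltage sensor, by 5.31, which was well above background on 1 of 2 siControl arrays. The pumps ATP2A1 (fast fibres) and ATP2A2 (slow fibres) rose by 4.92 and 2.65, while ATP2A3, the non-muscle pump, had a difference of -0.60 that missed the threshold.

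Genes of energy supply moved in both directions. Of 39 genes of creatine, glycogen and glycolysis 15 rose and 6 fell, with a median of 0.05. CKMT2, the mitochondrial creatine kinase of muscle, PYGM, the glycogen phosphorylase of muscle, and AMPD1, the AMP deaminase of muscle, were well above background only in siZNF148, at least 69.5-fold, 77.8-fold and 117-fold higher. CKM, the cytosolic creatine kinase, rose from 9.79 and 9.75 to 17.34, 17.41 and 17.44. Enolase, the penultimate enzyme of glycolysis, divided by isoform. ENO3, of muscle, rose by 5.28, ENO1, the widespread form, fell by 1.39, and ENO2, the neuronal form, fell by 1.74. In oxidative metabolism 10 of 35 genes rose and 1 fell. MB, the oxygen store of muscle, was well above background only in siZNF148 (10.3, 10.305 and 10.37, at least 74.2-fold higher), and COX6A2, a muscle subunit of cytochrome oxidase, rose by 6.33. The widespread subunits COX4I1 and COX6A1 had differences of 0.03 and -0.05. TFAM, which maintains mitochondrial DNA, fell by 1.10, although it lost the call under 2 alternatives.

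Other structures of the muscle fibre rose in part. In the neuromuscular junction list 9 of 13 genes rose and none fell. CHRNG, the fetal subunit of the acetylcholine receptor, rose from 7.36 and 7.14 to 10.43, 10.57 and 10.56, whereas CHRNE, the adult subunit, had a difference of -0.41 (adjusted p = 0.218). LRP4, the agrin receptor, rose by 3.61. In the dystrophin complex, which ties the cytoskeleton to the matrix, 8 of 18 genes rose and 1 fell. DMD, the gene of dystrophin itself, rose by 3.43, while SNTB2, a syntrophin, fell by 2.63. Small heat shock proteins and myosin chaperones rose in 8 of 13 cases, with HSPB7 up by 4.34 and the myosin chaperone UNC45B by 4.82, and the inducible HSPA1A fell by 1.25. Among 19 ubiquitin ligases and FOXO factors 11 rose and 1 fell, with TRIM63, a ligase of thick filament proteins, up by 6.03.

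Fusion genes moved less. Of 27 tested 8 rose and 4 fell, with a median of 0.08, and 2 fell without siControl replicate 2. MYMK, the membrane protein required for myoblast fusion, was already at 14.49 and 14.54 in siControl and measured 15.13, 15.06 and 15.16 in siZNF148, a difference of 0.60 that did not reach 2-fold. MYMK had 2 tested probes, and the 1 not given here was called higher, so its change depends on the probe. NCAM1, an adhesion molecule of myotubes, rose from 10.26 and 10.13 to 14.80, 14.84 and 14.64. CAV3, the caveolin of muscle, rose by 3.28, and KIRREL1, an adhesion protein, fell by 1.34. BOC, a co-receptor for cadherins, fell by 1.60, with 2 of 3 siZNF148 arrays well above background, and it lost the call under 3 alternatives.

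Genes of the cell cycle fell broadly, and those of mitosis fell most. Of 65 mitosis genes 63 fell and none rose (median -4.46), and of 50 DNA replication genes 45 fell and none rose (median -2.41). KIF14, a kinesin of cytokinesis, fell from 10.27 and 10.31 to 4.47, 3.93 and 4.07 (difference -6.13, adjusted p = 2.71e-14). ASPM, which organizes spindle poles, fell from 12.14 and 12.22 to 6.50, 6.48 and 6.38. NUF2, which links kinetochores to microtubules, fell from 10.50 and 10.38 to 4.54, 4.57 and 4.87. NEK2, a centrosome kinase, and CDC25C, the phosphatase that starts mitosis, were well above background on both siControl arrays and on no siZNF148 array, at least 32.5-fold and 28.8-fold lower. MKI67, the proliferation marker, measured 11.18 and 11.42 against 6.45, 6.63 and 6.43. In replication RRM2, which makes deoxynucleotides, fell by 4.35 and MCM10, a helicase cofactor well above background on 1 of 3 siZNF148 arrays, fell by 4.20. In all 3 siZNF148 arrays the mitosis list had a median signal between 6.68 and 6.84, against 11.12 and 11.14 in siControl. The effect was lower at 96 h than at 48 h for 29 of the 65 genes, among them KIF14 (difference -1.58) and ASPM (-1.74), and for 14 with normexp background correction.

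Regulators of the cycle were mixed. Of 42 control genes 18 fell and 4 rose. E2F1, E2F2 and E2F7 fell by 3.44, 3.07 and 3.18, and CCNE2, a cyclin of S phase entry, by 3.83. E2F8, a repressor of the same family, rose from 7.36 and 7.30 to 9.38, 9.45 and 9.27. CDKN1C, an inhibitor of cyclin-dependent kinases, rose by 3.14 and CDKN1A, another, by 1.84, while CDKN2A fell by 1.15 and CDKN1B had a difference of 0.09. RB1 had a difference of -0.03 and CCND1 of -0.50. CDK4, which the line carries as an added gene, had a difference of -1.05. Lamins and chromatin proteins of cycling cells fell in 14 of 22 cases, with LMNB1 down by 2.95 and HMGB2 by 2.71, and LMNA, the lamin of differentiated cells, had a difference of 0.07.

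Promoters of mitosis genes are shown because they share 2 short motifs, the CHR (TTTGAA) and the CCAAT box (CCAAT), both searched on both strands and marked in capitals with the C-rich motif.
KIF14 (chr1:200620702-200621001, strand -): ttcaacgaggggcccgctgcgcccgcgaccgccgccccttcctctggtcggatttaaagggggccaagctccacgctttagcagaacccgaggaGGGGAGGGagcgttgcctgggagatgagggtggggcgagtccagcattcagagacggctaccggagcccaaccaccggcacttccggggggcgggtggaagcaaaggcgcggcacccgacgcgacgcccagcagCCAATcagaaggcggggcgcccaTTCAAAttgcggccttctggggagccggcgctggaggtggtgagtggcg
ASPM (chr1:197146620-197146919, strand -): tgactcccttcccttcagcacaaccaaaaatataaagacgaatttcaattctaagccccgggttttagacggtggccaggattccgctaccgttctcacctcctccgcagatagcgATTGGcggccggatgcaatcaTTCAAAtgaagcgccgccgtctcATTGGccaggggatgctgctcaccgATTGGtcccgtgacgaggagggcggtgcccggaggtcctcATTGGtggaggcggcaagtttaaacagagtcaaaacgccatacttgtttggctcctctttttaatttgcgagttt
KIF14 held 1 CHR, 1 CCAAT box and 1 C-rich motif, and ASPM held 1 CHR and 4 CCAAT boxes. A CHR and a CCAAT box in each were conditions of the choice and so are not a finding. Among the largest falls well above background in both groups, HLA-DOA and HLA-DMB were passed over without a CHR, and NUF2 without a CCAAT box. The CHR was present in 38 of 55 mitosis promoters (69.1%) and in 15.4% of all promoters, and the CCAAT box in 69.1% and 35.7%. Among promoters of genes tested the CHR was present in 11.5%, against 15.3% of those of genes called lower and 11.9% of those of genes called higher.

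Interferon-stimulated genes rose at 96 h, and for most of them the rise at 96 h exceeded that at 48 h. These genes are switched on when type I interferon binds its receptor and a complex that holds STAT2 and IRF9 enters the nucleus, and they encode antiviral proteins. Of 41 tested 37 rose at 96 h and none fell (median 3.36), whereas at 48 h 10 rose and 3 fell (median 0.16). The difference between times was itself called in the upward direction for 38 of the 41. The median signal of the list was 9.75 and 9.64 in siControl and 12.49, 12.50 and 12.34 in siZNF148 at 96 h, and 9.45, 8.98 and 9.20 against 9.56, 9.61 and 9.43 at 48 h. All 3 siZNF148 arrays at 96 h stood above every siControl array at either time. The count of called differences was 38 without siControl replicate 1 at 48 h too, and within the shared slide, where siZNF148 is replicate 2 alone and the other groups supply the spread, 37 genes were called higher.

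MX1, an antiviral GTPase, rose from 8.09 and 8.22 to 15.64, 15.50 and 15.49 (difference 7.39, SE 0.31, adjusted p = 8.56e-14), and its effect was larger at 96 h than at 48 h by 5.91 (adjusted p = 4.17e-09). RSAD2, which blocks viral replication, was well above background only in siZNF148, at 10.41, 10.37 and 10.02, at least 71.3-fold higher. BST2, which tethers virus to the cell surface, rose from 4.75 and 4.91 to 13.07, 12.85 and 12.71. ISG15, a ubiquitin-like modifier, rose from 12.26 and 12.41 to 18.40, 18.40 and 18.33. CXCL10, an interferon-induced chemokine, was well above background only in siZNF148, at least 9.03-fold higher. The 4 genes not called higher were CXCL11, GBP2, IRF1 and TRIM22, with differences of 1.33, 0.53, 0.32 and -0.13, and CXCL11 had siControl arrays at 2.10 and 7.17.

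The pathway itself was read from genes chosen after values were seen. IFNB1, the ligand interferon beta, was well above background on all 3 siZNF148 arrays at 96 h in growth media (4.80, 5.66 and 5.53) and on no siControl array, at least 2.33-fold higher. It was well above background on no array at 24 or 48 h in growth media. Of the receptor chains, IFNAR1 fell from 10.72 and 10.698 to 8.33, 8.53 and 8.12, and IFNAR2 had a difference of 0.12. IFNAR1 was already called lower at 24 and 48 h in growth media, with differences of -1.69 and -2.70. The signal transducers STAT2 and IRF9 rose by 1.502 and 1.94, and IRF7, which amplifies interferon production, rose by 5.06. IRF3, which starts that production, had a difference of -0.04. The sensors of double-stranded RNA IFIH1, RIGI and TLR3 rose by 3.89, 2.71 and 1.16.

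**Figure D2:**
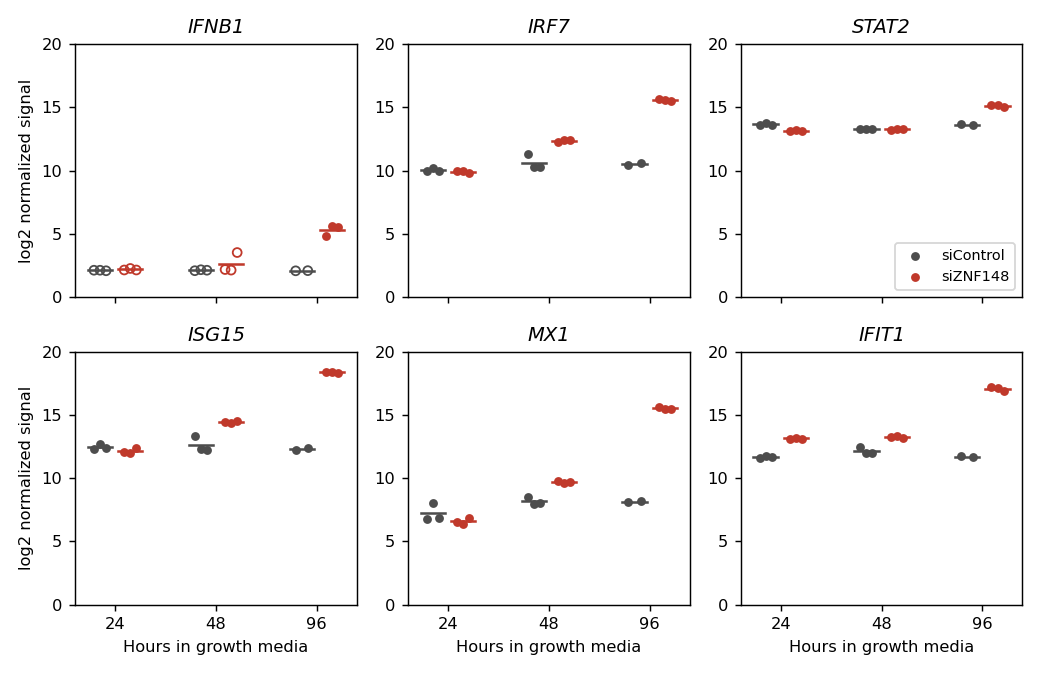
Log2 normalized signal of 6 interferon pathway genes on every array at 24, 48 and 96 h in growth media, with siControl in grey and siZNF148 in red. Filled points were well above background, open points were not, and lines are group means. In each of the 6 genes the siZNF148 arrays at 96 h stand above all other arrays, and IFNB1 is filled there alone.

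The promoters of MX1 and BST2 are shown because they carry the element through which that complex acts, here GAAANNGAAA on both strands, in capitals with the C-rich motif.
MX1 (chr21:41420308-41420607, strand +): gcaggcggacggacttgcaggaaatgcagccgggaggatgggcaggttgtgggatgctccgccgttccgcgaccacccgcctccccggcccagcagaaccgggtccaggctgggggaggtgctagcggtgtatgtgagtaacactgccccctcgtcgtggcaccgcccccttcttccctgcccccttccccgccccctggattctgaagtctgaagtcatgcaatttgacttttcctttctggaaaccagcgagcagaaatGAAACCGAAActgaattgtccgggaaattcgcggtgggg
BST2 (chr19:17405581-17405880, strand -): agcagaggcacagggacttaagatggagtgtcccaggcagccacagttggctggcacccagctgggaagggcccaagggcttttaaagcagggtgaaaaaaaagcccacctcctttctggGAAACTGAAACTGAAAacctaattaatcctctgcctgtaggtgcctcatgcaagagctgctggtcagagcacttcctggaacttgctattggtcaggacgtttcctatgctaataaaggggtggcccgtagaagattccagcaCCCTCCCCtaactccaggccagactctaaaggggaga
MX1 held 1 such element and BST2 held 2 that overlap, plus 1 C-rich motif. The element was present in 19 of 31 interferon promoters (61.3%), in 3.65% of all promoters and in 4.64% of those of genes called higher. The motif was added after values were seen.

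HLA class II genes fell while class I genes did not pass the threshold. Class II molecules present peptides to helper T cells and depend on the coactivator CIITA. Of 15 genes of the class II pathway 11 fell and none rose (median -4.18). HLA-DRA measured 12.89 and 12.84 in siControl and 6.75, 7.52 and 7.39 in siZNF148 (difference -5.65, adjusted p = 5.65e-15). HLA-DOA, a modulator of peptide loading, fell from 13.20 and 13.05 to 6.38, 7.23 and 6.88, and HLA-DMB, its partner in loading, from 10.98 and 10.96 to 5.02, 5.2 and 5.12. CIITA fell from 9.51 and 9.53 to 5.12, 3.91 and 3.63, with 2 of 3 siZNF148 arrays well above background. The DNA-binding factors RFX5, RFXANK and RFXAP, which recruit CIITA, had differences of -0.76, 0.29 and -0.89. The effect was lower at 96 h than at 48 h for 8 of the 15, for HLA-DRA with a difference of -2.03 and for HLA-DOA of -3.40. Class I molecules present peptides in most cells, and HLA-B, HLA-C and the light chain B2M had differences of -0.58, 0.12 and -0.15. The CCAAT box was present in 10 of 13 class II promoters (76.9%). Probes of HLA genes can bind transcripts of related genes, and alleles differ, so single HLA values are uncertain.

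**Figure D3:**
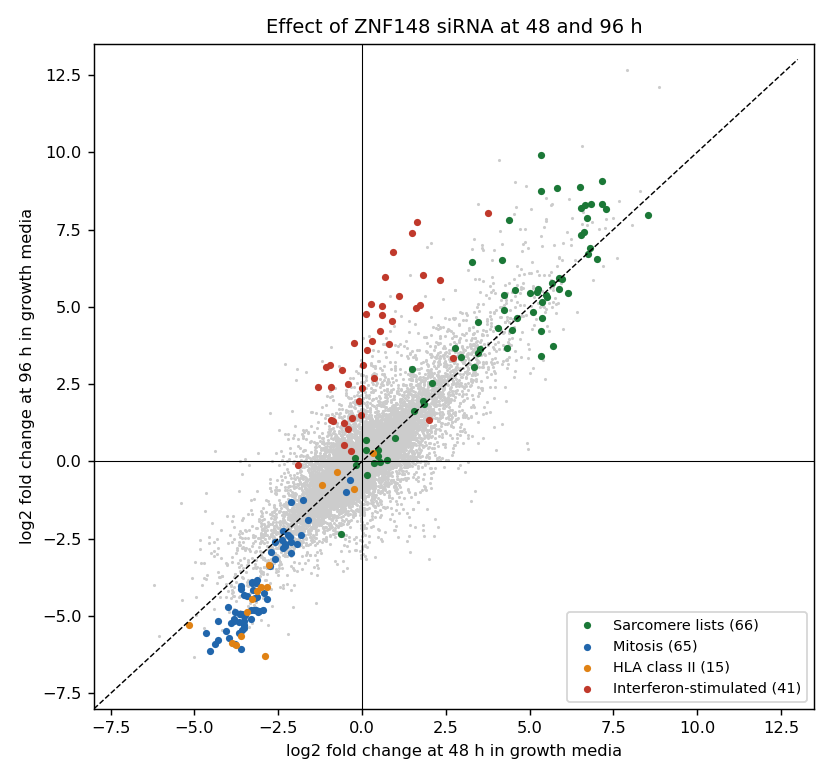
Each grey point is a gene, placed by its log2 fold change at 48 h (horizontal) and 96 h (vertical) in growth media, and coloured points are the named lists with their gene numbers. Sarcomere genes lie on both sides of the dashed line of equal effects, and their 48 h effects include siControl replicate 1 at 48 h, whose thin filament median was 14.68 against 7.84 and 7.78 in the other siControl arrays. Most mitosis and HLA class II genes lie below the line, and most interferon-stimulated genes lie above it, with a median of 0.16 at 48 h and 3.36 at 96 h. The comparisons have separate control arrays.

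Signalling and matrix genes split in both directions. In the insulin-like growth factor pathway, which supports muscle growth, 9 of 21 genes rose and 2 fell. IGFBP5 and IGFBP3, which bind the ligands, rose by 3.76 and 2.81, the ligand IGF2 rose by 1.23, and IGFBP6 fell by 1.90. Of 48 collagens and matrix proteins 12 rose and 13 fell. COL1A1, of fibrillar collagen, rose from 14.19 and 14.19 to 16.78, 16.82 and 16.82, whereas its partner chain COL1A2 had a difference of -0.13. COL4A1, of basement membrane, rose by 2.47 and POSTN, a matrix signal protein, by 3.50. DCN, a proteoglycan, fell from 17.05 and 16.83 to 14.10, 14.35 and 14.27, and the matrix proteases MMP3, MMP2 and MMP14 fell by 2.77, 1.59 and 1.87. Among cytokines 7 of 26 rose and 6 fell. CCL5 was well above background only in siZNF148, at least 55.1-fold higher, IL17B rose from 5.18 and 5.37 to 14.08, 13.97 and 14.06, and IL33 fell by 2.62. For cholesterol and fatty acid synthesis 14 of 33 genes rose at 48 h and 5 at 96 h, and for 7 the effect was lower at 96 h, among them the enzymes SQLE and HMGCS1.

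Markers of other cell types were read beside these results. Over all genes tested 12.3% rose and 12.4% fell, so 1 or 2 called genes in lists this short mark little. Of 8 endothelial genes 1 rose (2 without siZNF148 replicate 3) and 2 fell, of 7 blood genes 2 fell, of 8 epithelial genes 2 rose and of 5 adipocyte genes none was called. EPCAM, which defines epithelial cells, was below background in both groups. CD14, a myeloid gene, fell from 11.69 and 11.76 to 7.41, 7.63 and 7.30. The summed blood list, led by its strongest probes such as that of CD14, was 12 and 12.06 in siControl against 9.34, 9.51 and 9.33 in siZNF148. The mean log2 signal of that list moved less, from 6.311 and 6.497 to 5.612, 5.725 and 5.541, and its median difference was 0.07. PTPRC, carried by white blood cells, measured 5.84 and 5.97 against 6.35, 6.22 and 6.03. In fibroblast markers 2 of 10 rose and 3 fell, with THY1 down by 4.77 and PDGFRB up by 2.43, and the summed list ran from 17.83 to 17.94 in siControl and from 17.67 to 17.73 in siZNF148. Cardiac markers rose in 7 of 11 cases, which were NPPA, the sarcomere genes MYL4, MYH6, ACTC1, TNNT2 and TNNI3, and the factor GATA4. NPPA, a heart hormone, was well above background only in siZNF148, at least 41.0-fold higher, while NKX2-5 measured 15.94 and 15.92 against 16.06, 15.94 and 16.01. Smooth muscle markers rose in 5 of 10 cases and fell in 2, with MYH11 well above background only in siZNF148 (at least 7.58-fold higher) and MYLK down by 2.94. Neuronal markers rose in 4 of 9 cases, with STMN2 at least 38.01-fold higher, and TUBB3 and SNAP25 fell by 1.38 and 2.15. The part of any other cell type in the results was not tested.

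Growth media were compared with differentiation media at 96 h by the test of the difference between effects. In differentiation media serum is withdrawn after transfection, so the hours since transfection are not taken as equal. The effect was higher in growth media for 1275 genes (6.93%) and lower for 1022 (5.55%). Mitosis genes had a lower effect in growth media in 54 of 65 cases and replication genes in 34 of 50. Levels in siControl differed between media. The siControl medians of the mitosis list were 11.14 and 11.12 in growth media and 8.15, 8.09 and 8.01 in differentiation media, while siZNF148 arrays lay between 6.68 and 6.84 and between 5.73 and 5.89. For interferon-stimulated genes the siControl medians were 9.75 and 9.64 against 9.71, 9.63 and 9.88, and the siZNF148 medians were 12.49, 12.50 and 12.34 in growth media and 11.41, 11.40 and 11.32 in differentiation media. The effect was higher in growth media for 22 of the 41, among them USP18 by 3.23 and MX1 by 2.35. Of the 48 matrix genes 18 had a higher and 6 a lower effect. Of the 39 creatine, glycogen and glycolysis genes 2 had a higher and 7 a lower effect. Of the 33 cholesterol and fatty acid genes 1 had a higher and 6 a lower effect. Junction genes had a higher effect in 7 of 13 cases and dystrophin complex genes in 7 of 18, where 1 had a lower effect. MYOG had a higher effect in growth media by 3.42 (adjusted p = 0.00829).

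**Figure D4:**
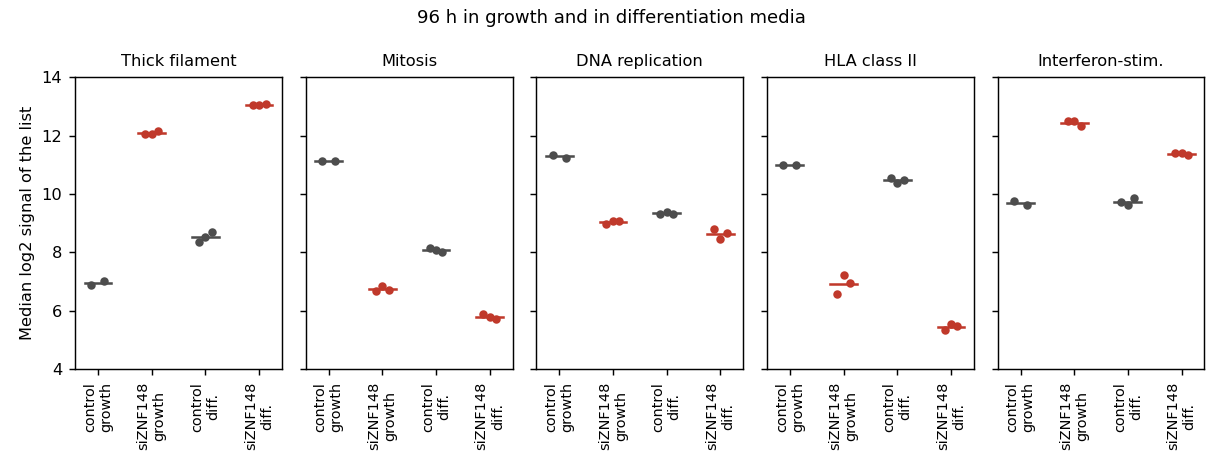
Median log2 signal of 5 gene lists on each array at 96 h in growth and differentiation media, with siControl in grey, siZNF148 in red and lines at group means. Mitosis medians of siControl arrays are 11.14 and 11.12 in growth media and 8.01 to 8.15 in differentiation media, and interferon medians of siZNF148 arrays are higher in growth media.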

How the data were processed

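RNA of LHCN-M2 cultures was hybridized to 1-colour Agilent arrays of 62976 spots (2075 control spots). The authors deposited background-subtracted intensities on a linear scale, made with Agilent Feature Extraction 10.7.3.1 per the file headers and without scaling between arrays, and a matrix of log2 values normalized by the authors, used here as an alternative. Analysis used limma 3.58.1, R 4.3.3 and the package data.table (version 1.17.8). Control and outlier spots were dropped, spots of 58201 probes were averaged as log2 and quantile-normalized over 29 arrays, and the fit with limma took the 38714 probes that passed the background flag on 2 or more arrays, with 10 group means. Spots dropped as outliers left MYL1 and ANLN without siControl replicate 1. Two-sided tests were used, with differences between effects as contrasts of the same fit. RefSeq accessions named 31104 probes of 22439 genes, and a gene is its tested probe with the highest mean signal. Below-background genes are given as bounds, with each dim array at the higher of its own signal and its lowest signal well above background.

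No saturated spots were found, and the number of arrays limits precision. Array headers name hg19 (14) or no build (15), so gene positions are not given, and promoters carry their own GRCh38.p14 coordinates (14097 of 18398 tested genes matched). Groups came from the sample labels. The gene lists, members and named-gene rule were chosen with earlier results of these data known. The rule named ZNF148, ZNF281 and the regulators, the largest rises and falls well above background on every array or on all arrays of 1 group only, the largest members of each list and those against its direction. Other genes were chosen after their values were seen. Deviations of arrays with the same replicate number correlated at -0.00329 and -0.03, so the numbers were not taken to pair the arrays, although deviations of 2 siControl arrays mirror each other. Python 3.11.15, pandas 2.3.3 and matplotlib 3.10.9 made motif counts and figures. Some genes are not reported here.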

Additional observations from a re-analysis of the deposited data

Results flagged for a closer look

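Effects at 96 h in growth media that differed from another time or medium, by the test of the difference, are listed with their values. The effect differed from that at 48 h for 922 genes, and from that at 96 h in differentiation media for 2297. Against 48 h it was higher for 38 of 41 interferon genes, beside 3.11% of all genes tested. It was lower for 29 of 65 mitosis, 8 of 15 HLA class II and 7 of 33 sterol genes, beside 1.9% of all. MEF2D had a difference of -1.02 between times. Against differentiation media the effect was higher for 22 of 41 interferon, 7 of 13 junction, 7 of 18 dystrophin complex and 18 of 48 matrix genes. The share over all genes tested was 6.93%. It was lower for 54 of 65 mitosis, 34 of 50 DNA replication and 11 of 22 lamin and chromatin genes, beside 5.55% of all. In the lists with higher effects, 6 matrix genes and 1 dystrophin complex gene had a lower effect. MYOG and MEF2A had effects higher by 3.42 and 1.83 in growth media, and MYF5 and MYF6 had differences of -1.93 and -1.27. Groups of 2 or 3 arrays were too small for a test of outliers.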

How the results depend on the processing

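Under 22 alternatives ZNF148 kept its fall, with a range of -2.404 to -1.849, and of -2.404 to -2.206 when an array was left out. Normexp background correction gave 1462 genes higher, 1528 lower and 554 with a different effect than at 48 h, and 14 of the mitosis genes instead of 29 then differed between times. Without the fold threshold 4795 genes were higher, 5583 lower, 2876 differed between times and 5831 between media. Leaving out an array gave 2089 to 2240 genes higher, 2163 to 2309 lower, 745 to 950 differing between times, 2048 to 2256 differing between media, and 445 to 453 called members of the lists, against 453 as reported. Counts of genes higher at 96 h in growth media and genes lower at 96 h in growth media were 2259 and 2289 with replicate number as a block, and the numbers share only a label, not a pairing. Within the shared slide 2103 were higher and 1985 lower, and with slide as a fixed block 2241 and 2093. MEF2D, which was not called (-0.03), turned to 0.012 with slide as a random block, 0.073 with slide as a fixed block, 0.115 within the slide, 0.034 without siControl replicate 1 and 0.021 without siZNF148 replicate 1, while it kept its sign at -0.0983 without siZNF148 replicate 2. Of 139 named genes called, 129 kept the call under every alternative, and 10 lost it under at least 1 (BOC, CSF3, TFAM, SYNPO2, VIM, IGF1, CSF1R, PECAM1, CDH1 and CNN1). The methods' test per probe was not run for differences between effects. The 2 siControl arrays limit what small differences can show, and the settings within the slide and with slide as a fixed block were chosen after seeing the data.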

Other observations

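Probes named for small RNAs of the imprinted region that also holds MEG3 and DLK1 were read after their values were seen. Of 37 SNORD113 and SNORD114 genes 22 rose and none fell at 96 h (median 1.59), 23 rose at 48 h and none at 24 h, and 7 rose at 96 h in differentiation media. The noncoding MEG3 and MEG9 rose by 3.91 and 2.94, and DLK1, a membrane regulator of differentiation, rose from 5.96 and 6.47 to 10.99, 10.72 and 10.90. Rises were also seen in other families of small RNA genes. Of 8 SNAR genes 7 rose (median 1.85), and of 21 SCARNA genes 7 rose and 1 fell. Of 9 SNORD115 and SNORD116 genes 3 rose. Of the 123 remaining SNORD genes 2 rose and 4 fell, and of 94 SNORA genes 4 rose. Copies of SNORD113 and SNORD114 are alike in sequence, so single members are uncertain. Whether these probes read the small RNAs or longer RNAs of the region was not tested.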
